A study of Mus musculus with 54 samples.

Results

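The MYC and MAX network is a set of transcription factors of the basic helix-loop-helix leucine zipper class that compete for the partner MAX. The 10 genes described here (Myc, Mycn, Mycl, Max, Mxd1, Mxd3, Mxd4, Mxi1, Mnt and Mlx) were chosen by name as a list, not by a threshold on their counts, out of the 55385 genes of each count table. Earlier results of these data were known when this list and the gene lists below were chosen. All 10 were read at least once in both experiments and entered the edgeR tests given here. As background, MYC, MYCN and MYCL bind DNA at E-box sequences as heterodimers with MAX and activate genes of ribosome biogenesis, nucleotide synthesis and glycolysis. MXD1, MXD3, MXD4, MXI1 (also named MXD2) and MNT pair with the same MAX protein, bind the same E-boxes and recruit SIN3 and histone deacetylases, which represses the genes. MLX is a related partner that binds some MXD proteins, MNT and the glucose-sensing factor MondoA. In T cells, Myc is known as a gene induced early by engagement of the TCR, and it is needed for the growth that precedes cell division.

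RNA-sequencing libraries came from naive CD4+ T cells of adult mice, in 2 experiments that were counted and analyzed apart. Magnetic beads served to enrich the cells of the CD5/CD6 experiment from pooled lymph nodes and spleens of mice on the C57BL/6 background, which were WT or lacked Cd5 (Cd5-/-), Cd6 (Cd6-/-) or both genes (Cd5-/-Cd6-/-). Cd6-/- mice lack part of exon 1 of Cd6, and Cd5-/-Cd6-/- mice lack the interval that holds both genes. Lat fl-dtr maT-Cre mice gave both groups of the LAT experiment, which were separated on a cell sorter. In these mice the T cell-specific Cre deletes Lat in part of the cells: cells with the human diphtheria toxin receptor (hDTR+) are named WT, and hDTR- cells are named Lat-/-. So the WT cells sorted there carry the modified Lat allele and the Cre as well. In what follows, the WT cells of the respective experiments are called bead-enriched and sorted WT cells. LAT is the transmembrane adaptor through which the TCR passes its signal on, and CD5 and CD6 are surface receptors that modulate that signal. RNA was taken at 0 h, right after purification, or after 4 h or 20 h on plate-bound anti-CD3 (3 µg/ml) with anti-CD28 (1 µg/ml), with 3 samples per condition. No sample held unstimulated cells kept in culture for 4 h or 20 h. In differences from 0 h, the stimulus and the time in culture therefore cannot be told apart. The samples of a condition are described as independently prepared, but neither labels nor methods say that they came from separate mice, so p-values measure only the spread between these samples.

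The 36 libraries of the CD5/CD6 experiment held 20554354 to 45222554 counts and the 18 of the LAT experiment held 17784644 to 28501095. Levels are given as CPM, the gene's counts scaled to a common library size, and 3 counts, taken as the floor of detection, correspond to 0.0631 to 0.136 CPM and 0.105 to 0.176 CPM in the respective experiments (counting error only). Lat was at 15.2, 11.6 and 19.1 CPM in Lat-/- cells and 292, 214 and 241 CPM in sorted WT cells at 0 h. Bead-enriched WT cells had 704 ± 76.9 CPM at 0 h, against 249 ± 39.8 CPM in sorted WT cells (mean ± SD, n = 3). At 4 h, these were 1223 ± 136 and 309 ± 44.7 CPM, and at 20 h 532 ± 89.2 and 98.3 ± 6.57 CPM. The cause of this difference between the WT cells was not tested. The 0 h libraries 2 labelled Cd5-/- and Cd6-/- stand against their labels: Cd5 was at 129, 719 and 105 CPM in libraries labelled Cd5-/- and 724, 172 and 719 CPM in those labelled Cd6-/-. Cd6 was at 329 to 1298 CPM in the former, lowest in library 2, and at 251 to 1203 CPM in the latter, highest in library 2. By both genes, each of these libraries resembled the other label, and whether they were exchanged was not tested. Both libraries were kept under their labels, and the responses of Cd5-/- and Cd6-/- cells named below are also given without them. Markers of CD4 T cells summed to 2265 CPM or more in every library of the CD5/CD6 experiment and to 2349 CPM or more in the LAT experiment. B cell markers (6 genes) summed to 65.9 to 584 CPM at 0 h, 36.2 to 196 CPM at 4 h and 1.27 to 4.77 CPM at 20 h in the CD5/CD6 experiment, with none of the 6 at 0 in any library at 0 h, and to at most 4.83 CPM in the LAT experiment. Myeloid markers (6 genes) summed to 103 to 538 CPM at 0 h, 59.2 to 90.6 CPM at 4 h and 54.4 to 93.6 CPM at 20 h in the CD5/CD6 experiment, and to 61.5 to 124 CPM in the LAT experiment. Cst3 alone was at 44.9 to 179 CPM and 60.3 to 120 CPM in the respective experiments. At 20 h, up to 5 of the 6 had 0 counts in a library of the CD5/CD6 experiment. In bulk samples, fewer cells that express a gene and less RNA of it per cell cannot be told apart.

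Myc was the activator of the network that these cells expressed. Levels of different genes are compared per kilobase of the gene length given with the counts. That length need not be that of the transcript expressed, so the order of genes depends on it. Bead-enriched WT cells at 0 h had Myc at 48 ± 3.99 CPM per kb (mean ± SD, n = 3), Max at 46.4 ± 7.21 and Mlx at 41.9 ± 5.92, which did not differ beyond their spread. The repressors followed, with Mxd4 at 13.7 ± 1.37 and Mnt at 13.5 ± 1.06 CPM per kb, again within their spread, then Mxd1 at 5.95 ± 1.19, Mxi1 at 3.77 ± 0.315 and Mxd3 at 0.726 ± 0.149. Mycl at 0.182 ± 0.114 and Mycn at 0.0838 ± 0.0379 CPM per kb were the lowest. Without the length, Max was at 167 ± 25.9 CPM, Myc at 130 ± 10.8, Mxd4 at 116 ± 11.6, Mlx at 83.7 ± 11.8 and Mnt at 62.5 ± 4.89. At 4 h Myc stood at 445 ± 68.7 CPM per kb and Max at 50.3 ± 2.27.

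Myc was higher and the repressor gene Mxd4 lower in stimulated than in unstimulated WT cells in both experiments, at both times. Myc is at chr15:61985391-61990374 on the + strand (GRCm38). In the CD5/CD6 experiment, its level in WT cells was 123, 143 and 125 CPM at 0 h, 1121, 1425 and 1084 CPM at 4 h and 596, 650.0 and 550.1 CPM at 20 h (replicates 1, 2 and 3 in order, here and below). Every stimulated library exceeded every unstimulated library, and every 4 h library exceeded every 20 h library. Its rise was 9.27-fold at 4 h (log2 fold change 3.21 ± 0.18 SE, edgeR quasi-likelihood test, Benjamini-Hochberg adjusted p = 8.02e-27) and 4.59-fold at 20 h (adjusted p = 2.22e-19). From 4 h to 20 h, Myc fell 2.02-fold (adjusted p = 2.63e-07) and by less than 2-fold without replicate 2, with library totals alone or with filterByExpr (log2 fold change -0.96, -0.91 and -0.99). Myc of sorted WT cells was at 144, 164 and 143 CPM at 0 h, 1261, 1244 and 975 CPM at 4 h and 599, 661 and 682 CPM at 20 h. There the rises were 7.71-fold and 4.3-fold (adjusted p = 4.16e-75 and 2.29e-41), in a table that was fitted apart from the first.

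Mycn, the paralog best known from neuroblastoma (chr12:12936093-12941914, - strand), and Mycl, the paralog best known from small cell lung cancer and from dendritic cells (chr4:122995652-123002485, + strand), were at or near the floor. Mycn had 0 to 25 counts over the 36 libraries of the CD5/CD6 experiment, with at most 3 counts in 16 of them, and 0 to 7 counts in the LAT experiment, with at most 3 counts in 17 of 18. Its counts in bead-enriched WT cells were 4, 11 and 15 at 0 h, 1, 0 and 3 at 4 h and 16, 1 and 9 at 20 h. Those in sorted WT cells were 0, 0 and 1 at 0 h, 0, 0 and 0 at 4 h and 3, 7 and 3 at 20 h. The fits called Mycn lower at 4 h than at 0 h in the first (adjusted p = 0.0424) and higher at 20 h than at 4 h in both (adjusted p = 0.041 and 0.0391), but no fold is given, since every 4 h library was at or under 3 counts. In the CD5/CD6 experiment neither call was made by DESeq2 (adjusted p = 0.0576 and 0.0586), the first was lost without replicate 2 and the second without replicate 1 or 2 (adjusted p = 0.263, 0.252 and 0.0841). In the LAT experiment the call was lost without any 1 of the replicates (adjusted p = 0.196, 0.26 and 0.221). Mycl had 8, 25 and 49 counts in WT libraries of the CD5/CD6 experiment at 0 h, 4, 0 and 1 at 4 h and 1, 2 and 0 at 20 h, and both falls from 0 h were called (adjusted p = 3.78e-04 and 1.05e-04). In the sorted cells of the LAT experiment, 16 of 18 libraries had no Mycl read, those at 0 h among them, which allows up to 0.105 to 0.176 CPM. The B cell and myeloid markers given above fell over the same hours in the CD5/CD6 libraries, and their part in the counts of Mycl was not tested.

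Max, the obligate partner of MYC and of the repressors (chr12:76937269-76962201, - strand), was not called at any time in WT cells. It was at 161, 145 and 195 CPM at 0 h, 182, 172 and 188 CPM at 4 h and 284, 261 and 303 CPM at 20 h in bead-enriched WT cells. The 20 h libraries lay above all the others, yet the difference from 0 h stayed under 2-fold (log2 fold change 0.76 ± 0.14, adjusted p = 7.61e-06). Max of sorted WT cells was at 159, 169.6 and 175 CPM at 0 h, 168, 167 and 156 CPM at 4 h and 242, 252 and 247 CPM at 20 h (log2 fold change at 20 h 0.56 ± 0.15, adjusted p = 7.77e-04). Mlx (chr11:101087277-101092207, + strand) was at 80.2, 73.9 and 96.8 CPM at 0 h, 95, 74.8 and 95.4 CPM at 4 h and 71.8, 82.4 and 91.8 CPM at 20 h in bead-enriched WT cells, and these overlapped. Sorted WT cells had it at 85.6, 87 and 85.1 CPM at 0 h, 84.9, 91.4 and 88.9 CPM at 4 h and 62.3, 64.1 and 62.8 CPM at 20 h (log2 fold change at 20 h -0.44 ± 0.15, adjusted p = 0.0123, under 2-fold). Mlx overlaps the antisense gene Psmc3ip by 385 bases, and Psmc3ip went from 4.39 ± 1.18 CPM at 0 h to 43.5 ± 1.1 CPM at 20 h in those WT cells (mean ± SD, n = 3). Whether reads were counted by strand is not stated in the sources used here, so reads in the shared bases cannot be assigned. Mxi1 shares 5146 and 201 bases with the antisense genes AC133451.2 and Gm10197, and Mxd4 shares 1001 with the antisense gene Gm42846. Gm42846 and Gm10197 had 0 counts in every library. On their own strand, Mxd1 shares 2364 bases with Gm44292 and Max 1319 with Gm47218.

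Mxd4, a repressor typical of resting cells (chr5:34173883-34187720, - strand), had the deepest fall of the 5 repressor genes. Its level in bead-enriched WT cells was 107, 112 and 129 CPM at 0 h, 10.8, 22.4 and 19.3 CPM at 4 h and 8.51, 6.16 and 5.56 CPM at 20 h, and the 3 times did not overlap. The fall was 6.63-fold at 4 h (log2 fold change -2.73 ± 0.23, adjusted p = 3.17e-17) and 17.2-fold at 20 h (log2 fold change -4.10 ± 0.25, adjusted p = 7.76e-25). Mxd4 of sorted WT cells was at 116, 98.9 and 110.2 CPM at 0 h, 25.7, 27.7 and 52.9 CPM at 4 h and 19, 20.6 and 22 CPM at 20 h. The falls there were 3.05-fold and 5.28-fold (adjusted p = 5.53e-23 and 1.92e-47). At 4 h, library 3 of these WT cells had the highest Mxd4 and Mxi1 and the lowest Myc of its group.

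Mxi1, which is best known as a tumor suppressor candidate and a target of hypoxia and FOXO factors (chr19:53310518-53375810, + strand), fell at 4 h in the CD5/CD6 experiment. In bead-enriched WT cells it was at 27.6, 23.4 and 26.1 CPM at 0 h, 8.12, 10.3 and 11 CPM at 4 h and 13.2, 12.7 and 13.6 CPM at 20 h. The fall at 4 h was 2.62-fold (log2 fold change -1.39 ± 0.19, adjusted p = 1.81e-09). At 20 h the difference from 0 h was 1.95-fold and was under 2-fold, although no library overlapped (log2 fold change -0.96 ± 0.18, adjusted p = 7.72e-06). This value was near the threshold and was called lower by DESeq2 (-1.02), with RLE factors (-1.02), with library totals alone (-1.11), without replicate 2 (-1.05) and without the 0 h libraries 2 named above (-1.02). The sorted WT cells had it at 28.9, 26 and 33.7 CPM at 0 h, 17.1, 16.8 and 25.9 CPM at 4 h and 16.3, 16 and 16.1 CPM at 20 h. Both differences from 0 h were under 2-fold (log2 fold change -0.56 ± 0.17, adjusted p = 0.00375 at 4 h and -0.87 ± 0.17, adjusted p = 1.78e-06 at 20 h).

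Mnt, the most broadly expressed MYC antagonist (chr11:74830920-74845725, + strand), was higher at 4 h and lower at 20 h than at 0 h. It was at 63.5, 57.2 and 66.8 CPM at 0 h, 97.2, 111 and 82.4 CPM at 4 h and 37.8, 29.1 and 21.4 CPM at 20 h in bead-enriched WT cells. Every 4 h library was above, and every 20 h library below, the libraries at 0 h. The difference at 4 h was under 2-fold (log2 fold change 0.63 ± 0.18, adjusted p = 0.00425). At 20 h Mnt fell 2.12-fold from 0 h (adjusted p = 7.60e-07), and by 0.85 on the log2 scale, under 2-fold, without replicate 3, and from 4 h to 20 h Mnt fell 3.29-fold (adjusted p = 2.43e-12). Mnt of sorted WT cells was at 61.2, 40.1 and 64.8 CPM at 0 h, 85.5, 99.3 and 85.4 CPM at 4 h and 31.5, 32.1 and 26.8 CPM at 20 h. The fall from 4 h to 20 h was 2.99-fold there (adjusted p = 7.27e-22), and the difference between 20 h and 0 h was under 2-fold (log2 fold change -0.88 ± 0.16, adjusted p = 1.32e-07).

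Mxd1 (chr6:86647042-86669161, - strand) is the founding MXD gene and is known from terminally differentiating cells. In bead-enriched WT cells it was at 50.9, 34.1 and 41.2 CPM at 0 h, 24.2, 66.3 and 49 CPM at 4 h and 19.3, 16.3 and 13.1 CPM at 20 h. The 4 h libraries spanned the range at 0 h, and the fall at 20 h was 2.59-fold (log2 fold change -1.37 ± 0.28, adjusted p = 2.95e-05). Mxd1 of sorted WT cells was at 35.4, 25.9 and 39.2 CPM at 0 h, 32.1, 31.4 and 40.2 CPM at 4 h and 23.1, 19.5 and 17.7 CPM at 20 h (log2 fold change at 20 h -0.74 ± 0.17, adjusted p = 6.70e-05, under 2-fold). Mxd3 (chr13:55325168-55329823, - strand), the family member known from cells in S phase, was the sole repressor called higher than at 0 h in WT cells. Its level there was 2.06, 1.36 and 1.75 CPM at 0 h, 1.61, 1.09 and 0.497 CPM at 4 h and 5.19, 3.24 and 4.3 CPM at 20 h in the CD5/CD6 experiment, a rise of 2.47-fold at 20 h (log2 fold change 1.30 ± 0.36, adjusted p = 0.00206). In the LAT experiment, WT cells had 0.51, 0.496 and 0.7 CPM at 0 h, 0.888, 0.55 and 0.604 CPM at 4 h and 4.02, 3.87 and 3.49 CPM at 20 h, a rise of 6.6-fold (log2 fold change 2.72 ± 0.50, adjusted p = 3.06e-07). Mxd3 shares 105 bases with the antisense gene Prelid1, which went from 176 ± 35.5 to 228 ± 15.8 CPM in those cells. The part of Prelid1 reads in the level of Mxd3 was not tested.

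**Figure D1:**
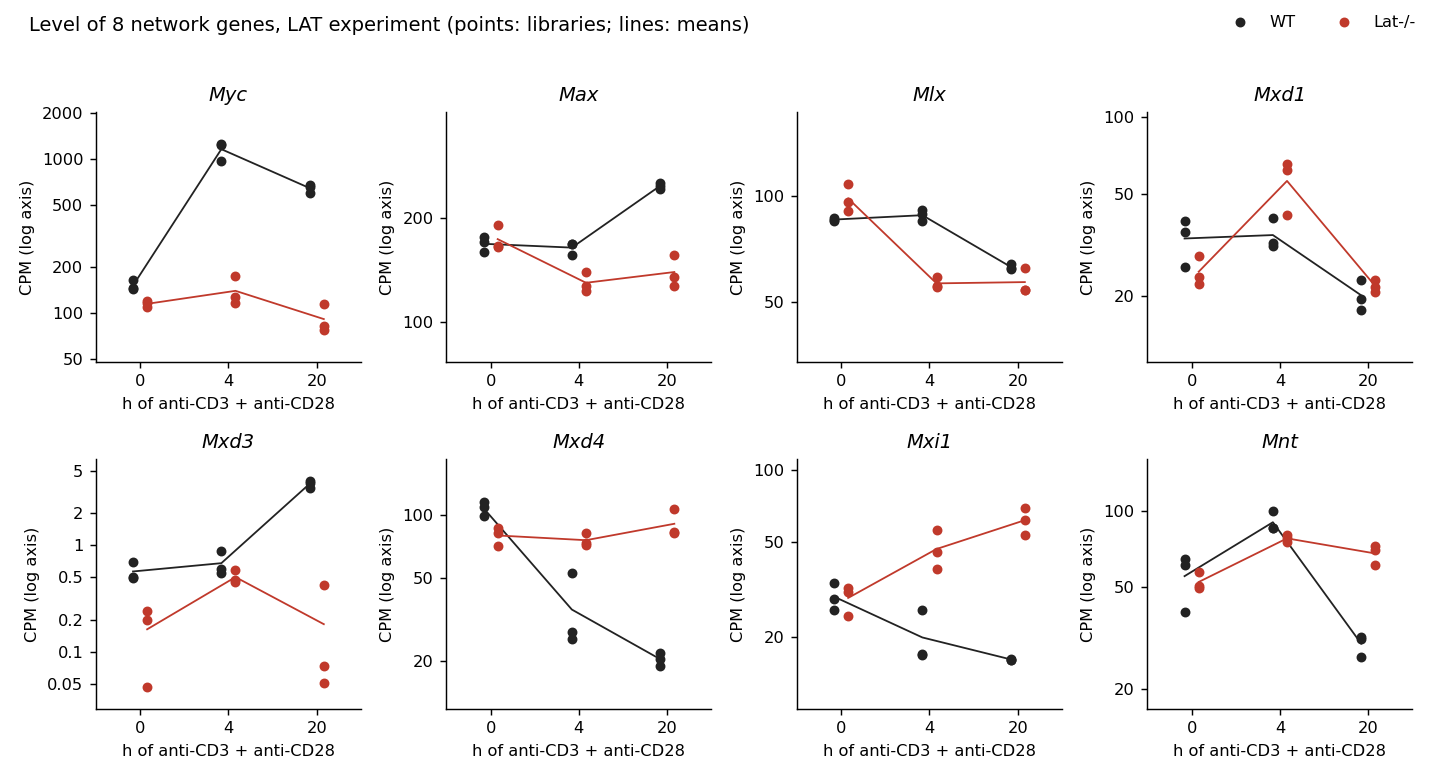
Level of 8 members in each library of the LAT experiment, in CPM on a log axis, against h of anti-CD3 and anti-CD28. Points are libraries, lines join the means of 3 libraries, black is WT and red is Lat-/-. The 3 WT libraries at 4 h had Myc at 1261, 1244 and 975 CPM and the 3 Lat-/- libraries at 126, 116 and 175 CPM, while Mxd4 and Mxi1 of Lat-/- cells lay above those of WT cells at 4 h and 20 h.

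By count over the 10 members, 1 rose and 4 fell in bead-enriched WT cells at 4 h, when 8.24% of all tested genes rose and 11.1% fell. At 20 h against 0 h, 2 rose and 4 fell (12.3% and 17.3% of all tested genes), and from 4 h to 20 h, 2 rose and 4 fell (8.74% and 12.2%). In sorted WT cells, 1 rose and 1 fell at 4 h (8.05% and 9.29%), 2 rose and 1 fell at 20 h (10.8% and 12.7%), and from 4 h to 20 h, 2 rose and 1 fell (7.9% and 9.32%). These counts include Mycn and Mycl, which were at or near the floor. Both were among the 4 that fell in bead-enriched WT cells at 4 h, and Mycl was among the 4 that fell at 20 h. Mycn was among the 2 that rose from 4 h to 20 h in both experiments. With the adjusted p alone, without the fold threshold, the LAT experiment's WT counts were 4, 8 and 8 of 10. The shares above do not apply to these counts, and shares of all tested genes at the adjusted p alone are not given. The fall of Mxd4 and the rise of Myc were called in both experiments at both times, and the rise of Mxd3 in both at 20 h.

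Of the 10 members, 9 had a RefSeq promoter window, in 11 windows (Mxi1 has 3 and Myc none), each with 250 bases before the gene's start (GRCm38.p6). The E-box letters CACGTG, which read the same on both strands, were found in 3 of the 11, those of Mxd4, Mnt and Mlx, against 6.02% of the 32851 windows of the same length for all genes. They are shown because the E-box is the sequence to which the network's own proteins bind, and binding was not measured here. Each is written 5′ to 3′ on the gene's strand, ends where the first annotated exon begins, and has the E-box in capitals. The windows are chr5:34187721-34187960 (- strand), chr11:74830674-74830919 (+ strand) and chr11:101087040-101087276 (+ strand).
Mxd4: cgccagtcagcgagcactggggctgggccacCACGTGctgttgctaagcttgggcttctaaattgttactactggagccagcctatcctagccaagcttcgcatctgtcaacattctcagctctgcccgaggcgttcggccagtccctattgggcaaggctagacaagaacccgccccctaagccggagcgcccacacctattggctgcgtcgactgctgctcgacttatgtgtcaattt
Mnt: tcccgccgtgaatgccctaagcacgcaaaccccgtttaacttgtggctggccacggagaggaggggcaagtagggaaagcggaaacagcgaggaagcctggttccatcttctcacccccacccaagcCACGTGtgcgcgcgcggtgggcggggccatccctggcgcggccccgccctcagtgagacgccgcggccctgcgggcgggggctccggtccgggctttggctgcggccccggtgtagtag
Mlx: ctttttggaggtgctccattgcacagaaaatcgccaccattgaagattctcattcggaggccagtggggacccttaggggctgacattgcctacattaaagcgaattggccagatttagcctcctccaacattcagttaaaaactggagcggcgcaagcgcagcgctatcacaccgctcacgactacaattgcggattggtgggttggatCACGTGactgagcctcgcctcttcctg
The first E-box letter lay 219, 123 and 40 bases before the RefSeq start of Mxd4, Mnt and Mlx. The letters GTAAACA on either strand, a core that FOXO factors read, were found in 1 of the 11 windows, the third of Mxi1, and in 3.17% of all windows. Of the genes with an E-box in this window, Mxd4 and Mnt were lower at 20 h than at 4 h in bead-enriched WT cells and Mlx was not called there. Mxd1, with no E-box in its window, was lower there too, at 46.5 ± 21.2 and then 16.2 ± 3.11 CPM (mean ± SD, n = 3). So was Myc, which has no window. In sorted WT cells, Mnt was called lower over this step, and Mxd4 was not, at 35.4 ± 15.2 and then 20.5 ± 1.48 CPM. A link between the E-box and these levels was not tested.

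Lat-/- cells did not show the rise of Myc. Their Myc was at 119, 109 and 115 CPM at 0 h, 126, 116 and 175 CPM at 4 h and 76.9, 81.6 and 114 CPM at 20 h. The highest stimulated Lat-/- library was at 175 CPM and the lowest stimulated WT library at 599 CPM. The log2 fold change of Myc over 0 h in Lat-/- cells was 0.28 ± 0.15, adjusted p = 0.238 at 4 h (95% interval -0.009 to 0.57) and -0.33 ± 0.15, adjusted p = 0.171 at 20 h (95% interval -0.62 to -0.039). Against WT, Myc was 8.35-fold lower in Lat-/- cells at 4 h (log2 fold change -3.06 ± 0.16, adjusted p = 1.63e-79) and 7.11-fold lower at 20 h (log2 fold change -2.83 ± 0.16, adjusted p = 5.58e-70). At 0 h the same comparison gave a log2 fold change of -0.40 ± 0.15, adjusted p = 0.282, and the 3 Lat-/- libraries lay below the 3 WT libraries.

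Mxd4 and Mxi1 were higher in stimulated Lat-/- cells than in stimulated WT cells. Mxd4 was at 82.4, 86.6 and 71.3 CPM at 0 h, 72.5, 82 and 73.6 CPM at 4 h and 83.5, 108 and 82 CPM at 20 h in Lat-/- cells, and the times overlapped. It was 2.14-fold higher than in WT at 4 h (log2 fold change 1.10 ± 0.16, adjusted p = 4.01e-11) and 4.44-fold higher at 20 h (log2 fold change 2.15 ± 0.16, adjusted p = 6.60e-39). The difference at 4 h lost the fold threshold without replicate 1 or 2, at a log2 fold change of 0.98 and 0.92. Mxi1 of Lat-/- libraries was at 24.5, 30.9 and 32 CPM at 0 h, 45.5, 55.8 and 38.7 CPM at 4 h and 62, 69.2 and 53.6 CPM at 20 h. Its rise at 20 h was 2.11-fold (log2 fold change 1.08 ± 0.17, adjusted p = 9.79e-09), with 0.98 on the log2 scale, under 2-fold, without replicate 1. Against WT, Mxi1 was 2.34-fold higher at 4 h (adjusted p = 1.31e-11), 0.99 on the log2 scale without replicate 2, and 3.82-fold higher at 20 h (adjusted p = 1.40e-27).

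Mnt of Lat-/- cells was at 50.4, 49.7 and 57.5 CPM at 0 h, 80.1, 75.1 and 78.4 CPM at 4 h and 70.1, 72.6 and 61.1 CPM at 20 h. All stimulated libraries lay above the unstimulated ones, and the fall seen in WT from 4 h to 20 h was not called (log2 fold change -0.20 ± 0.15, adjusted p = 0.57). At 20 h Mnt was 2.26-fold higher in Lat-/- than in WT cells (log2 fold change 1.17 ± 0.16, adjusted p = 8.20e-13). Mxd1 was the member that edgeR called higher in Lat-/- cells at 4 h than at 0 h, from 23.7, 22.3 and 28.5 CPM at 0 h to 65.3, 41.6 and 62 CPM at 4 h, a 2.27-fold rise (log2 fold change 1.18 ± 0.17, adjusted p = 2.07e-10), and it was back at 21.6, 23 and 20.8 CPM at 20 h. DESeq2 also called Mxd3 (log2 fold change 1.63, adjusted p = 0.0392), while Mnt and Mxi1, above 0 h in every library, were under 2-fold (log2 fold change 0.57 ± 0.16, adjusted p = 0.00271, and 0.68 ± 0.17, adjusted p = 7.12e-04). Mxd3 was low, at 4, 1 and 6 counts at 0 h, 11, 10 and 9 counts at 4 h and 1, 2 and 10 counts at 20 h, and WT cells had 94, 105 and 79 counts at 20 h. The fitted log2 difference at 20 h was -4.33 ± 0.58, adjusted p = 4.68e-13, and 2 of the 3 Lat-/- libraries were at or under 3 counts.

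Max and Mlx differed by less. Max was at 127, 123 and 139 CPM at 4 h and 135, 127 and 156 CPM at 20 h in Lat-/- cells, and at 20 h every library was below every WT library (log2 fold change -0.83 ± 0.15, adjusted p = 1.90e-07, under 2-fold). Mlx went from 91.1, 108 and 96.3 CPM at 0 h to 55.6, 55.2 and 59.1 CPM at 4 h and 54.4, 54.4 and 62.6 CPM at 20 h. Its log2 fold change at 4 h was -0.80 ± 0.15, adjusted p = 4.88e-06, under 2-fold, and Psmc3ip, which shares bases with it, was at 5.96 ± 0.315 and 5.51 ± 0.804 CPM at these times. WT cells at 4 h had Mlx at 84.9, 91.4 and 88.9 CPM, above all Lat-/- libraries of that time (log2 fold change -0.64 ± 0.15, adjusted p = 2.31e-04).

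**Figure D2:**
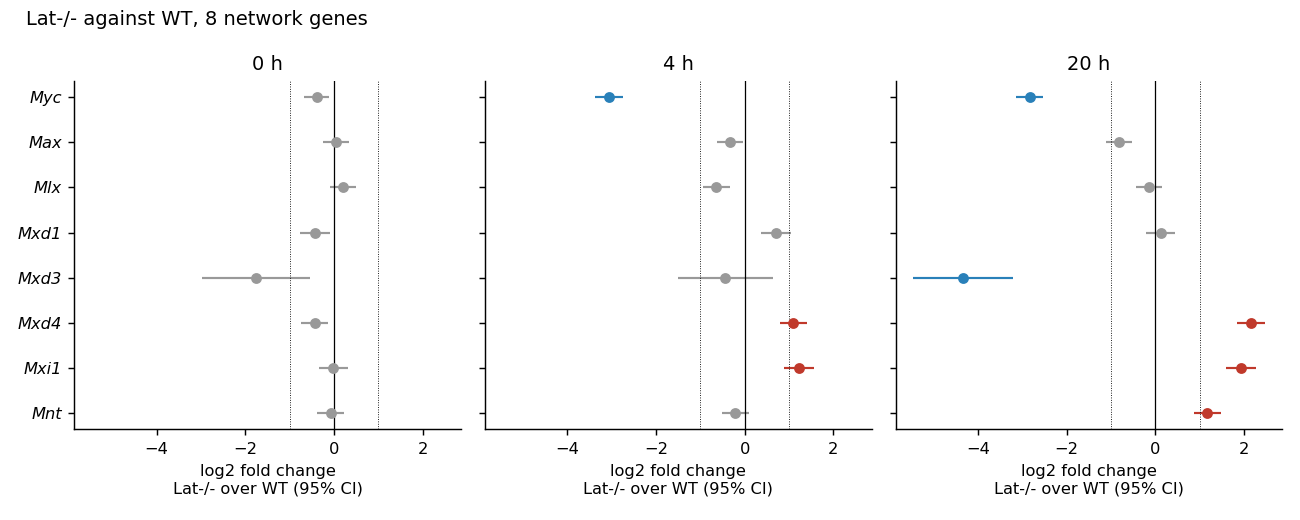
Log2 fold change of Lat-/- over WT cells for 8 members at 0, 4 and 20 h, with 95% confidence intervals from edgeR. Red points were called higher, blue points lower and gray points were not called, and dotted lines mark 2-fold. No member was called at 0 h, and at 20 h Myc (-2.83) and Mxd3 (-4.33) lay opposite to Mxd4 (2.15), Mxi1 (1.93) and Mnt (1.17).

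Over the 10 members, Lat-/- and WT cells differed in 0 at 0 h by edgeR, where 0.148% of all tested genes were higher and 0.814% lower. At 4 h, 2 were higher and 1 lower (5.51% and 6.23% of all tested genes), and at 20 h, 3 were higher and 2 lower (12.1% and 12.3%). Without replicate 2 the count at 4 h was 1 (Myc). At 0 h, 4 members had an unadjusted p under 0.05 (Myc, Mxd1, Mxd3 and Mxd4), and DESeq2 called 0. Lat-/- cells alone had 1 member higher at 4 h than at 0 h (3.08% of all genes, and 3.62% lower), 1 higher at 20 h than at 0 h (2.14% and 2.07%) and 1 lower at 20 h than at 4 h, Mxd1 (2% and 2.1%). The difference between the responses was tested too. At 4 h, 4 members responded differently, Mxd1, Mxd4 and Mxi1 with a higher and Myc with a lower fold in Lat-/- cells (4.37% and 4.34% of all tested genes). That of Mxd1 was 0.94 on the log2 scale (adjusted p = 0.0686) without replicate 1. At 20 h, the count was 5, with Mxd4, Mxi1 and Mnt higher and Myc and Mxd3 lower (10.1% and 9.35%), and that of Mxd3 was -1.94 (adjusted p = 0.234) without replicate 1.

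Set against each other per kilobase, the level of Myc over the summed levels of Mxd1, Mxd3, Mxd4, Mxi1 and Mnt gives a ratio of messages, not of proteins. Its size depends on the gene lengths used, such as 2717 bases for Myc and 8483 for Mxd4. In sorted WT cells, the ratio was 1.46, 2.16 and 1.39 at 0 h, 16.1, 14.4 and 10.4 at 4 h and 13.5, 15.1 and 17.1 at 20 h. In Lat-/- cells it was 1.58, 1.4 and 1.43 at 0 h, 1.11, 1.06 and 1.6 at 4 h and 0.762, 0.718 and 1.24 at 20 h. No stimulated Lat-/- library was above the highest unstimulated WT library (2.16), but library 3 at 4 h (1.6) was above the others (1.46 and 1.39). In bead-enriched WT cells, the ratio went from 1.18, 1.53 and 1.15 at 0 h to 15, 13.8 and 13.8 at 4 h and 13.7, 19.1 and 18.5 at 20 h. From 4 h to 20 h Myc of WT cells was lower at 20 h and so were the summed repressors, which went from 31.5 ± 5.68 to 13.2 ± 2.60 CPM per kb in the CD5/CD6 experiment and from 31.7 ± 2.77 to 15.7 ± 0.902 CPM per kb in the LAT experiment (mean ± SD, n = 3). In Lat-/- cells the sum was 28.6 ± 1.00 CPM per kb at 0 h, 40.8 ± 0.996 at 4 h and 37.6 ± 4.01 at 20 h.

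**Figure D3:**
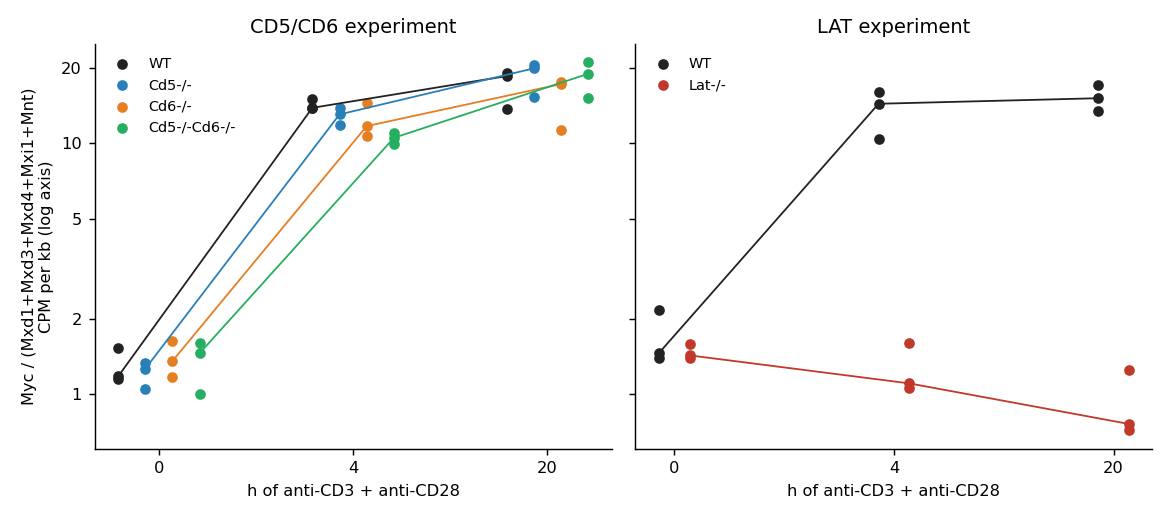
Ratio of the Myc level to the summed levels of Mxd1, Mxd3, Mxd4, Mxi1 and Mnt, both in CPM per kb, on a log axis, against h of stimulation. Points are libraries and lines join the medians of 3 libraries. The median rose from 1.18 at 0 h to 18.5 at 20 h in bead-enriched WT cells and from 1.46 to 15.1 in sorted WT cells, and in Lat-/- cells it went from 1.43 to 0.762.

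Between cells without CD5, CD6 or both and WT cells, no member was called at any time. At 4 h Myc was at 898, 1111 and 996 CPM in Cd5-/-, 1219, 1345 and 1148 CPM in Cd6-/- and 859.6, 1335 and 1064 CPM in Cd5-/-Cd6-/- cells, which overlapped with WT. The log2 difference from WT had 95% intervals of -0.59 to 0.043, -0.28 to 0.35 and -0.47 to 0.16. At 20 h the intervals were -0.36 to 0.27, -0.38 to 0.25 and -0.34 to 0.29, so a 2-fold difference of Myc lay outside all 6 of them. Within each of these genotypes, Myc rose 7.65-fold, 8.62-fold and 8.03-fold at 4 h, and Mxd4 fell 31-fold, 18.8-fold and 29.1-fold at 20 h. All differences from WT share the WT libraries.

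**Figure D4:**
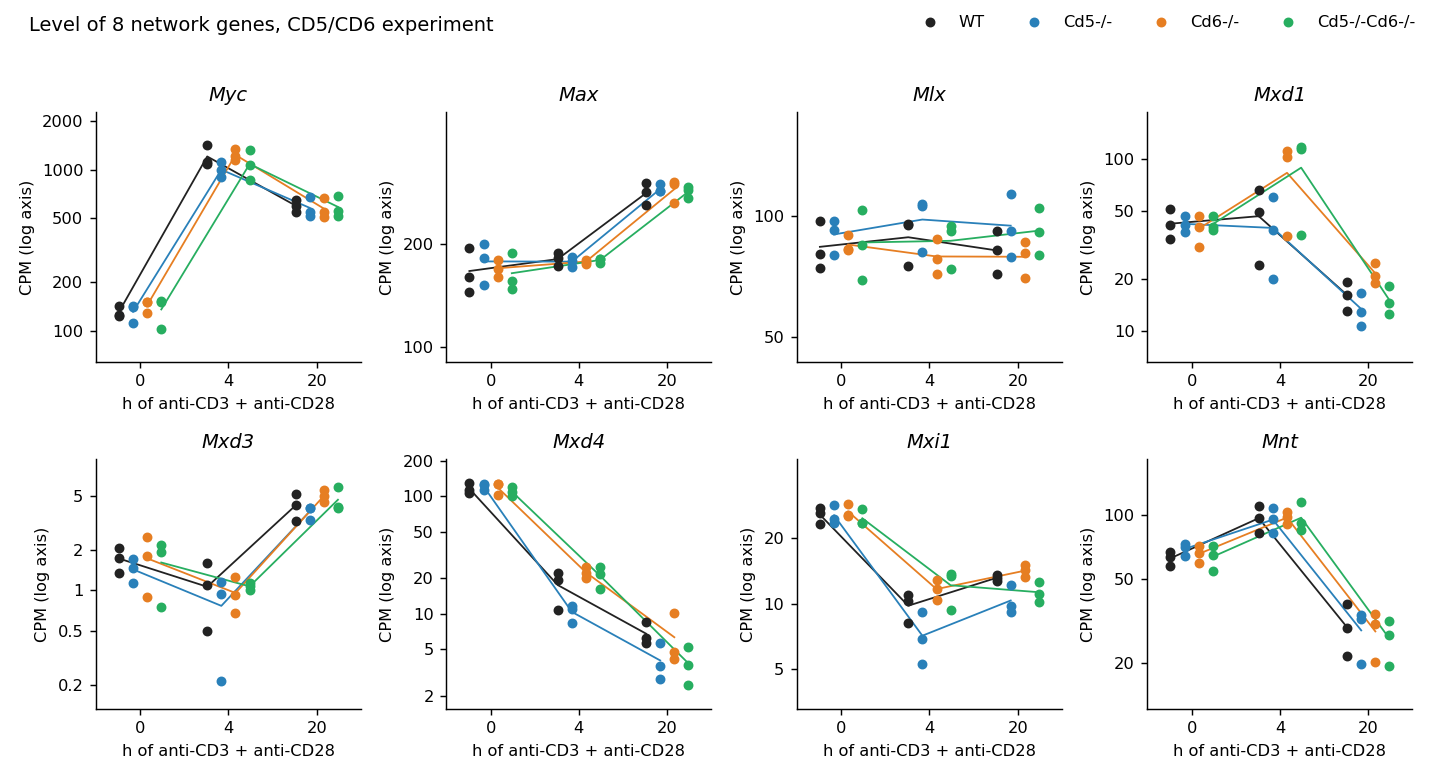
Level of 8 members in each library of the CD5/CD6 experiment, in CPM on a log axis, against h of stimulation. Points are libraries, lines join means of 3 libraries, and colors mark the 4 genotypes. No member was called between a knockout and WT, and at 4 h Mxd1 was at 24.2, 66.3 and 49 CPM in WT and 36.1, 116 and 114 CPM in Cd5-/-Cd6-/- cells.

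By edgeR, 0 members were called between a knockout and WT at 0, 4 or 20 h, and 0 between their responses. All tested genes gave 0.0619%, 0.0743% and 0.0186% called for Cd5-/- at 0, 4 and 20 h, 0%, 0.0031% and 0.0186% for Cd6-/-, and 0.0248%, 0.0434% and 0.0434% for Cd5-/-Cd6-/-. The differences of the responses at 4 h and 20 h gave 0.0031% and 0.0031% for Cd5-/-, 0% and 0.0031% for Cd6-/-, and 0% and 0% for Cd5-/-Cd6-/-. DESeq2 also called 0 members in each. Shares for Cd5-/- and Cd6-/- that use 0 h libraries, here and below, include the libraries 2 that stand against their labels. Through the spread estimated over all 36 libraries, these libraries also enter the other tests of this experiment, those at 4 h and 20 h among them. Shares without them are not given. With 0% called at 0 h, Cd6 itself was not called in cells labelled Cd6-/-. At an unadjusted p under 0.05, Cd5-/- cells had 2 members at 4 h (Mxd4 and Mxi1) and 1 at 20 h and in each response (Mxd4), Cd6-/- cells had 1 at 4 h and in the 4 h response (Mxd1), and Cd5-/-Cd6-/- cells had 1 at 4 h and in the 4 h response (Mxd1) and 1 at 20 h and in the 20 h response (Mxd4). The responses of the knockout cells at 4 h had 3 members called in Cd5-/- (19.5% of all tested genes), 5 in Cd6-/- (18%) and 4 in Cd5-/-Cd6-/- cells (17.2%). At 20 h there were 7, 5 and 7 (30%, 28.2% and 30.3%). Mycl, at or near the floor, was among those called in Cd6-/- cells at 4 h and in each of the knockouts at 20 h. With a replicate block, Mycl was also called lower at 4 h in Cd5-/- and Cd5-/-Cd6-/- cells (adjusted p = 0.0336 and 0.0404).

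With Mycn and Mycl set aside for their low counts, Mxd1 and Mxd4 had the widest differences from WT, none of them called. Mxd1 at 4 h was at 24.2, 66.3 and 49 CPM in WT, 20, 60.4 and 38.9 CPM in Cd5-/-, 35.7, 103 and 111 CPM in Cd6-/- and 36.1, 116 and 114 CPM in Cd5-/-Cd6-/- cells. In every genotype, library 1 was the lowest at 4 h. Libraries 2 and 3 of Cd6-/- and of Cd5-/-Cd6-/- cells lay above all WT libraries (log2 fold change against WT 0.83 ± 0.28, adjusted p = 1 and 0.93 ± 0.28, adjusted p = 0.556). Within its own genotype, the rise of Mxd1 at 4 h was called in Cd6-/- cells (log2 fold change 1.07 ± 0.28, adjusted p = 0.00123) and in Cd5-/-Cd6-/- cells (1.09 ± 0.28, adjusted p = 0.00111), and the difference of these responses from that of WT was not (0.93 ± 0.39, adjusted p = 1 and 0.94 ± 0.39, adjusted p = 1). These rises were under 2-fold in other fits: 0.99 in Cd6-/- cells with a replicate block, 0.88 and 0.85 with library totals alone, 0.91 and 0.78 without replicate 2, and 0.66 and 0.95 without replicate 3 on the log2 scale. Without replicate 2, the difference from WT at 4 h was called in both (log2 fold change 1.01, adjusted p = 0.0316, and 1.02, adjusted p = 0.0463). Mxd4 at 20 h was at 8.51, 6.16 and 5.56 CPM in WT, 5.66, 3.54 and 2.75 CPM in Cd5-/- and 5.16, 3.65 and 2.47 CPM in Cd5-/-Cd6-/- cells (log2 fold change against WT -0.79 ± 0.24, adjusted p = 0.948 and -0.84 ± 0.24, adjusted p = 0.516). At 4 h Mxd4 of Cd5-/- cells was at 8.37, 11.7 and 10.9 CPM (log2 fold change against WT -0.76 ± 0.22, adjusted p = 0.248). With both 0 h libraries 2 that stand against their labels left out, Myc rose 8.02-fold in Cd5-/- and 8.20-fold in Cd6-/- cells at 4 h, Mxd4 fell 31.4-fold and 18.4-fold at 20 h, and the rise of Mxd1 in Cd6-/- cells at 4 h was 1.09 on the log2 scale (adjusted p = 1.67e-04). At 4 h, Mxd3 was then called lower in Cd6-/- cells (log2 fold change -1.14, adjusted p = 0.0166, against -0.83 with them), and so were Mycl in Cd5-/- cells (adjusted p = 0.043) and Mycn in Cd5-/-Cd6-/- cells (adjusted p = 0.0484). No member was called between a knockout and WT without them. Mxd4 of Cd5-/- cells at 4 h then had a log2 fold change against WT of -0.74 ± 0.20 (adjusted p = 0.0477), under 2-fold. That of Mxd1 in Cd6-/- cells at 4 h was then 0.83 ± 0.22 (adjusted p = 0.0894).

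Of the 3 further factors of the network, 1 rose in bead-enriched WT cells at 4 h, when 8.24% of all tested genes rose and 11.1% fell. Mga, which encodes a large MAX partner, had 163 ± 28.7 CPM at 0 h and 90.6 ± 44.1 CPM at 20 h in bead-enriched WT cells (log2 fold change -0.85 ± 0.29, adjusted p = 0.0144, under 2-fold; mean ± SD here and below, n = 3). Mlxip, which encodes MondoA, rose from 91 ± 4.82 CPM to 192 ± 23.7 CPM at 4 h (log2 fold change 1.07 ± 0.19, adjusted p = 1.64e-06). In sorted WT cells Mlxip stayed just under 2-fold (log2 fold change 0.99 ± 0.15, adjusted p = 8.79e-10). Mlxipl, its paralog, had at most 4 counts in any library. Txnip, a MondoA-MLX target gene that encodes an inhibitor of glucose uptake, fell 37.5-fold in bead-enriched WT cells at 20 h and 19.9-fold in those of the LAT experiment, from 1381 ± 299.5 to 69.5 ± 15.7 CPM (adjusted p = 3.76e-145). In Lat-/- cells Txnip was at 1635 ± 364 CPM at 0 h and 1439.7 ± 226 CPM at 20 h (log2 fold change -0.18 ± 0.14, adjusted p = 0.582), 20.7-fold above WT at 20 h (adjusted p = 3.27e-148). Arrdc4, the other target of this kind on the list, was 4.94-fold higher in Lat-/- than in WT cells at 20 h, at 3.57 ± 0.249 against 0.709 ± 0.253 CPM (adjusted p = 4.25e-11).

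The 34 textbook MYC target genes were mostly higher in stimulated WT cells and lower in stimulated Lat-/- than in WT cells. In the CD5/CD6 experiment, 31 rose and 1 (Tert) fell at 4 h in WT cells, and 33 rose and 0 fell at 20 h, with median log2 fold changes of 2.00 and 2.40 where the median of all tested genes was 0. In sorted WT cells, 30 rose and 1 fell at 4 h and 32 rose at 20 h (medians 1.71 and 1.85). All tested genes had 8.24% and 12.3% higher in the first experiment and 8.05% and 10.8% in the second. In Lat-/- cells, 4 rose at 4 h and 1 at 20 h, with medians of 0.10 and -0.16, where 3.08% and 2.14% of all tested genes rose. Against WT, 26 were lower in Lat-/- cells at 4 h and 30 at 20 h (medians -1.60 and -2.17), where 6.23% and 12.3% of all tested genes were lower, and 1 was lower at 0 h. Ncl, which encodes the nucleolar protein nucleolin, rose 4.07-fold at 20 h in sorted WT cells, to 4018 ± 71.4 CPM, and stood at 1151 ± 80.7 CPM in Lat-/- cells (log2 fold change against WT -1.80 ± 0.15, adjusted p = 7.20e-33). Ldha, the lactate dehydrogenase of glycolysis, had 2376 ± 173 CPM in WT and 616 ± 95.1 CPM in Lat-/- cells at 20 h (log2 fold change -1.95 ± 0.15, adjusted p = 3.56e-37). Ccnd2, a cyclin of the G1 phase, was at 1584 ± 110.5 and 305 ± 15.8 CPM (log2 fold change -2.38 ± 0.15, adjusted p = 8.90e-53), and Npm1, a nucleolar chaperone, at 1812 ± 32.2 and 654 ± 38.6 CPM (log2 fold change -1.47 ± 0.15, adjusted p = 4.77e-22). The part of MYC in these rises was not tested.

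**Figure D5:**
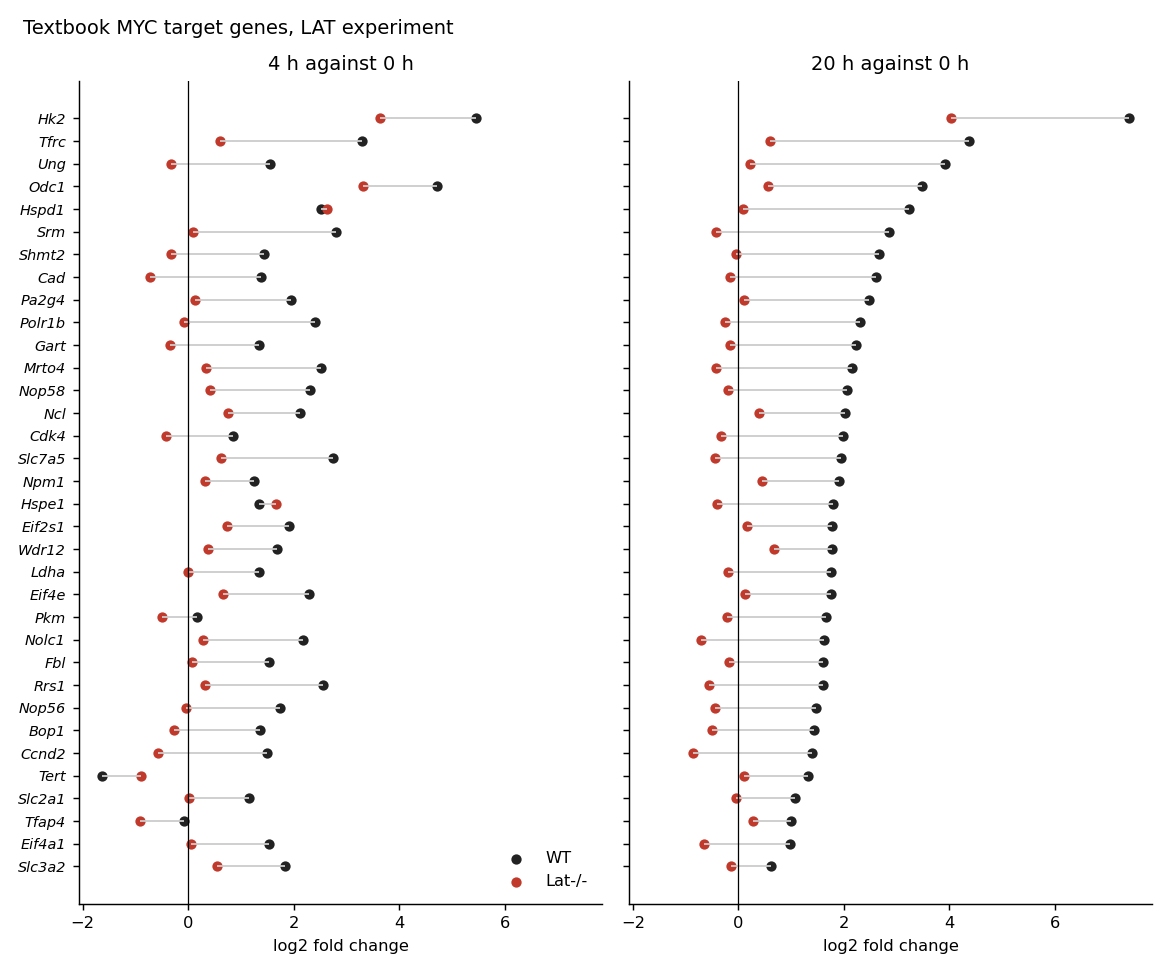
Log2 fold change over 0 h of the 34 textbook MYC target genes in the LAT experiment at 4 h and 20 h, in the order of the WT fold at 20 h. Black points are WT, red points are Lat-/- and a gray line joins both for each gene. At 20 h, 32 genes rose in WT cells and 1 in Lat-/- cells.

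Of the 5 genes that MYC is known to repress, 1 rose and 3 fell at 20 h in WT cells of both experiments (median log2 fold changes -1.12 and -2.87), and against WT, 3 were higher and 1 lower in Lat-/- cells at 20 h. In the same comparisons at 20 h, 12.3% of all tested genes rose and 17.3% fell in bead-enriched WT cells, 10.8% and 12.7% in sorted WT cells, and 12.1% were higher and 12.3% lower in Lat-/- than in WT cells. Cdkn1b, which encodes the cell cycle inhibitor p27, fell 12.4-fold and 7.29-fold, to 21 ± 3.08 and 28.6 ± 2.18 CPM, and in Lat-/- cells it was 14.6-fold higher than in WT at 20 h (adjusted p = 3.34e-116). Gadd45a, a stress gene, was at 0.904 ± 0.286 CPM in WT and 9.36 ± 1.37 CPM in Lat-/- cells at 20 h (log2 fold change 3.36 ± 0.29, adjusted p = 3.87e-29). Cdkn1a, which encodes the inhibitor p21, went the other way, from 0.232 ± 0.0503 to 99.6 ± 3.71 CPM at 4 h in WT cells, and it was 9.85-fold lower in Lat-/- cells at 4 h (adjusted p = 3.64e-61). Ndrg1, a stress-responsive gene, rose 4.24-fold in sorted WT and 4.46-fold in Lat-/- cells at 4 h (adjusted p = 1.59e-33 and 3.18e-32). At 20 h it was among the 3 that fell in bead-enriched WT cells, by 2.18-fold (adjusted p = 3.10e-08). In sorted WT cells its fall from 0 h was under 2-fold (log2 fold change -0.60 ± 0.17, adjusted p = 0.00111). Cdkn2b, one of the 3 that fell in the LAT experiment, had at most 5 counts in any library there.

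Of 10 genes of MYC coactivators and partners, 5 rose and 1 fell at 20 h in bead-enriched WT cells, and 4 rose and 1 fell in those of the LAT experiment (median log2 fold changes 0.67 and 0.46). Against WT, 5 were lower and 1 higher in Lat-/- cells at 20 h. Of all tested genes, 12.3% rose and 17.3% fell in the former WT cells, 10.8% and 12.7% in the latter, and 12.3% were lower and 12.1% higher in Lat-/- cells. Ruvbl2, an ATPase of chromatin remodelers, rose 5.78-fold and 3.95-fold in the WT cells (adjusted p = 2.92e-24 and 2.74e-36). Wdr5, a chromatin cofactor of MYC, rose 2.71-fold and 2.36-fold (adjusted p = 1.32e-14 and 3.59e-15). Ep400, the gene that fell, was at 187 ± 78.1 CPM at 0 h and 72.6 ± 13.5 CPM at 20 h in sorted WT cells (log2 fold change -1.36 ± 0.15, adjusted p = 4.22e-18), and Trrap had a log2 fold change of -0.45 ± 0.15, adjusted p = 0.0087. Of the 7 corepressors of MXD and MNT proteins, 2 rose and 1 fell at 20 h in bead-enriched WT cells, and 1 rose and 1 fell in those of the LAT experiment (medians 0.44 and 0.13), against the same shares of all tested genes, and 1 of 7 is near the 10.8% and 12.7% of the LAT experiment. Ncor1 fell 3.7-fold and 3.1-fold (adjusted p = 4.24e-06 and 2.19e-25), and Hdac2, a histone deacetylase, rose 2.27-fold in the first (adjusted p = 1.28e-10) and had a log2 fold change of 0.85 ± 0.15, adjusted p = 7.68e-08 in the second. The SIN3 genes were not called at 20 h in either, with log2 fold changes of -0.20 ± 0.15, adjusted p = 0.341 for Sin3a and -0.017 ± 0.15, adjusted p = 1 for Sin3b in sorted WT cells.

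Of 9 genes of MYC protein turnover, 3 rose and 2 fell at 20 h in bead-enriched WT cells, and 3 rose and 1 fell in those of the LAT experiment (median log2 fold changes 0.20 and 0.24), beside 12.3% and 17.3% of all tested genes in the former and 10.8% and 12.7% in the latter. Usp36, a nucleolar deubiquitinase of MYC, rose 2.69-fold and 2.18-fold at 4 h (adjusted p = 8.55e-09 and 1.54e-12). The ubiquitin ligase gene Huwe1 was not called at 20 h (log2 fold change -0.48 ± 0.15, adjusted p = 0.00404 in sorted WT cells), nor was Fbxl14 (-0.59 ± 0.15, adjusted p = 3.07e-04). Of 8 other E-box factors of the same protein class, 0 rose and 3 fell at 20 h in WT cells of both experiments (medians -0.76 and -0.65), where 17.3% and 12.7% of all tested genes fell. The 3 were not all the same genes in both experiments. Usf1 was among them in both, with falls of 2.12-fold and 2.39-fold (adjusted p = 2.01e-07 and 1.20e-14), and it was 2.64-fold higher in Lat-/- than in WT cells (adjusted p = 6.07e-18). Srebf2, the factor of cholesterol synthesis, had a log2 fold change of 0.13 ± 0.15, adjusted p = 0.546 at 20 h, Srebf1 one of -0.48 ± 0.15, adjusted p = 0.00471 and Tfe3 one of 0.43 ± 0.16, adjusted p = 0.0202, all 3 under 2-fold.

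Likeness of course was measured as Pearson's r of condition means of log2 CPM over the 12 conditions of the CD5/CD6 experiment, among the 10791 genes that averaged 50 counts or more, as a description without a test. Those most like Myc were Spry1, Hic1, Pus7, Champ1 and Gramd1b, with r of 0.998, 0.998, 0.997, 0.997 and 0.997. Over the 6 conditions of the LAT experiment, which did not enter the ranking, their r to Myc was 0.917, 0.837, 0.998, 0.950 and 0.974. Those most like Mxd4 were Nipal3, Ttyh3, Cacna2d4, Itga4 and Rgmb, with r of 0.999, 0.999, 0.998, 0.997 and 0.997, and 0.942, 0.847, 0.976, 0.941 and 0.943 over the LAT conditions. The 12 points fall into 3 times that share the stimulus, and the 4 genotypes at a time are not independent courses.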

How the data were processed

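RNA-sequencing of naive CD4+ T cells was deposited as 2 tables of raw gene counts, 1 per experiment (36 and 18 libraries, 3 per condition). According to the methods and the submitters' processing notes, the authors made stranded mRNA libraries, sequenced single reads (bcl2fastq 2.17.1.14), aligned them to GRCm38 with STAR and counted them with featureCounts, and they tested with DESeq2. The strand setting of the counting is not given in the sources used here. The tables held 0 sample columns that match no sample.

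Here, counts were tested in R 4.3.3 with edgeR 4.0.16 (quasi-likelihood, TMM factors, limma 3.58.1), separately per experiment, with 1 coefficient per genotype and time and over all genes with at least 1 read (32290 and 27780 genes). P-values were Benjamini-Hochberg adjusted over all of them, and calls needed a fold over 2 together with an adjusted p under 0.05. Intervals are 95% and from the SE. DESeq2 1.42.0, other scalings and filters, a replicate block, the compared groups alone, the adjusted p alone and leaving out libraries were alternatives. Libraries held 17784644 to 45222554 counts, scaled by TMM factors for CPM, which leave counting error small for all members but Mycn, Mycl and Mxd3. Scripts were tested on simulated data. Symbols matched 55144 of 55385 IDs.

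Same-numbered libraries deviated together (each of 3 correlations over 0.1) in 13 of 21 comparisons of the CD5/CD6 experiment (0.0318 to 0.626) and in 1 of 9 of the LAT experiment (-0.217 to 0.329), and the labels give no shared batch.

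The members and gene lists were chosen with earlier results of these data known. All members were named. From each list, up to 4 genes with the highest mean CPM in WT libraries of the CD5/CD6 experiment, or all genes of lists of 6 or fewer, were named (Tert, an exception, was chosen after its values were seen, and 1 gene under the rule is not reported here), and 5 genes most like Myc and 5 most like Mxd4. For Pearson's r, a prior count of 2 was added before taking log2 CPM.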

Additional observations from a re-analysis of the deposited data

Results flagged for a closer look

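In the LAT experiment, 9 responses of network members differed between Lat-/- and WT cells by a test of the difference itself, in edgeR, as the log2 fold change over 0 h in Lat-/- cells minus that in WT cells. At 4 h, the difference was -2.67 for Myc, 1.14 for Mxd1, 1.53 for Mxd4 and 1.24 for Mxi1 (adjusted p = 3.97e-33, 3.74e-05, 1.49e-10 and 4.38e-06). At 20 h, it was -2.43 for Myc, -2.57 for Mxd3, 2.59 for Mxd4, 1.95 for Mxi1 and 1.25 for Mnt (adjusted p = 9.24e-29, 0.0178, 1.50e-29, 9.29e-15 and 1.48e-07). The value for Mxd3 rests on Lat-/- libraries of 1 to 11 counts. Groups of 3 libraries were too small for a check of single libraries that stand apart.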

How the results depend on the processing

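With a replicate block, 35 of 35 counts of called members stayed within 1.5 times, and 112 of 112 member fold changes kept direction and side of the threshold; of Mycn, Mycl and the knockout responses it changed the calls given in the report and that of Mycn from 4 h to 20 h in sorted WT cells (adjusted p = 0.078). With library totals alone, the count in Cd5-/- cells at 4 h was 5, and the median of expressed genes shifted by up to -0.25. DESeq2 called 2 members in Lat-/- cells at 4 h. With the adjusted p alone, 8 were called in Cd6-/- cells at 20 h, 4, 8 and 8 in sorted WT cells (4 h and 20 h against 0 h, 20 h against 4 h), 5, 2 and 2 in Lat-/- cells, and 5 between Lat-/- and WT at 4 h. The share of all tested genes at that threshold is not given, so these counts have no background. Leaving out replicates gave 0 to 1 members between Cd6-/- and WT and between Cd5-/-Cd6-/- and WT cells at 4 h (1, Mxd1, without replicate 2), 3 to 5 in sorted WT cells at 20 h (5 without replicate 2, with Mxi1 and Mnt), 0 to 1 in Lat-/- cells at 20 h against 0 h (0 without replicate 1), 1 to 2 at 20 h against 4 h (2 without replicate 3, with Mxd3) and 1 to 3 between Lat-/- and WT cells at 4 h (1, Myc, without replicate 2).

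Signs turned for 15 uncalled values, 22 times over all settings, and the cause was not tested. With library totals alone, log2 fold changes at 4 h in WT cells were -0.12 for Max, -0.091 for Mxd1 and -0.16 for Mlx (CD5/CD6 experiment) and -0.19 for Mxd1 and -0.20 for Mlx (LAT experiment), and Mnt differed in the 4 h response of Lat-/- cells by 0.027. With filterByExpr, Mlx of Lat-/- cells from 4 h to 20 h was at -0.0023. Leaving out 1 replicate gave ranges across 0. In bead-enriched WT cells they were -0.37 to 0.61 for Mxd1 at 4 h, and for Mlx -0.0056 to 0.14 at 4 h, -0.16 to 0.028 at 20 h and -0.24 to 0.034 between both. In sorted WT cells at 4 h they were -0.14 to 0.016 for Max, -0.095 to 0.091 for Mxd1, -0.10 to 0.50 for Mxd3 and -0.025 to 0.019 for Mlx. In Lat-/- cells they were -0.84 to 0.68 for Mxd3 at 20 h and -0.0046 to 0.051 for Mlx from 4 h to 20 h. Between Lat-/- and WT cells at 0 h they were -0.019 to 0.11 for Max, -0.15 to 0.064 for Mxi1 and -0.22 to 0.018 for Mnt, and -0.25 to 0.14 for Mnt in the 4 h response. Depth limits Mycn, Mycl and, in Lat-/- cells, Mxd3.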
